A study of Mus musculus with 5 samples.

Results

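The enzymes that oxidise, hydrolyse and conjugate steroids and foreign compounds were followed in the luminal layer of the mouse uterus from day 3 to day 5 of pregnancy, across the time of embryo attachment. Members were the 202 of 23420 counted genes whose symbol starts with Cyp, Ces, Ugt, Sult, Hsd, Akr or Fmo and continues with a digit, with Cyp26a1 and Cyp51 left out. They comprised 100 cytochrome P450 (Cyp), 19 carboxylesterase (Ces), 21 UDP-glucuronosyltransferase (Ugt), 18 sulfotransferase (Sult), 20 hydroxysteroid dehydrogenase (Hsd), 17 aldo-keto reductase (Akr) and 7 flavin-containing monooxygenase (Fmo) genes. The name of a gene chose it and no measured value did. All libraries came from wild-type C57BL/6N mice without a transgene or a deleted allele, and the day of the vaginal plug was day 1. There was 1 library of day 3 morning, 1 of day 4 morning and 1 of day 4 evening, and on day 5 there was 1 taken apart from the attached embryo (labelled M pole, and called away in the plots) and 1 from the layer that encloses it (labelled AM pole, and called around). Pole and distance from the embryo cannot be told apart on day 5. No pole is given for the earlier libraries, so time and position cannot be told apart between them and day 5. The methods of the study describe flushing of 1 uterine horn on day 4 and an intravenous blue dye to find attachment sites on day 5. The number of mice behind each wild-type library is not given in the sources used here.

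Cytochrome P450 enzymes insert oxygen into steroids, retinoids, fatty acids and drugs, and carboxylesterases cleave esters of lipids and drugs. Hydroxysteroid dehydrogenases and aldo-keto reductases interconvert active hormones and weaker keto or hydroxy forms, so they set how much oestradiol, progesterone or corticosterone a cell meets. Sulfotransferases and glucuronosyltransferases attach charged groups that inactivate hormones and phenols. The luminal epithelium of the uterus is the first maternal layer that the blastocyst touches, and its state in early pregnancy is set by ovarian oestrogen and progesterone.

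Every value below is a count of reads on a gene or a quantity derived from it. Libraries held between 15334674 and 19529491 counts, and 3 counts corresponded to between 0.161 and 0.190 CPM (counts scaled to a common library size by the TMM method). Where 5 counts stand in a row, they follow the order day 3 morning, day 4 morning, day 4 evening, M pole and AM pole. With 1 library per group no difference had a replicate check, and each comparison was one of libraries and not of conditions. The 8 luminal epithelium markers summed to between 3435 and 4244 CPM in 4 libraries and to 6834 CPM at the AM pole. The library at the AM pole stood apart in its other markers as well. Its 8 embryo and trophectoderm markers summed to 114 CPM against 5.01 to 12.9 CPM elsewhere, and Cdx2, Pou5f1, Nanog and Hand1 were at 0 in the other 4 libraries and had 22, 68, 10 and 5 counts there. Smooth muscle (4 genes) summed to 38.0 CPM against 2.62 to 11.8. The stroma list (10 genes) summed to 770 CPM against 538 to 604, but its genes were split, with Des (354 CPM) and Hand2 (132 CPM) at their highest there and Dcn (14.1 CPM), Col1a2 (15.3 CPM) and Col3a1 (42.3 CPM) at their lowest. Endothelium (4 genes) summed to 93.9 CPM against 9.39 to 40.5, of which Cdh5 gave 71.4 CPM, while Kdr was at its lowest there (1.05 CPM). The 4 gland genes found summed to 25.7 CPM against 0 to 3.92, of which Lif gave 17.7 CPM, while Foxa2 was lower there (1.22 CPM) than on day 4 morning (2.84 CPM). The study describes Lif in glands before attachment and in the stroma near the embryo after it, so Lif does not mark gland alone in that library. The part of these other cells in the member values at the AM pole was not tested.

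Of the 202 members, 48 had a mean of at least 1 CPM over the 5 libraries and were kept for comparisons. The other 154 included 71 at 0 in every library and 18 that reached 1 CPM in at least 1 library. Members took 0.318% of all counts on the morning of day 3, 0.321% on that of day 4, 0.206% that evening, 0.538% at the M pole and 0.153% at the AM pole. Most of that movement belonged to a single gene. Sult1d1 made up between 46.8% and 73.9% of member counts in 4 libraries and 17.9% at the AM pole. Without Sult1d1 the summed level of the members lay between 1144 and 1397 CPM in all 5 libraries. Of the kept members 14 had their highest level on day 4 morning, 12 at the M pole, 9 at the AM pole, 7 on day 3 morning and 6 on day 4 evening. The lowest level of 24 of the 48 was in the library at the AM pole. A tie at 0 went to the first of the tied libraries in the order given above. The same shares over all genes were not computed, so these counts do not set the members apart from other genes.

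**Figure D1:**
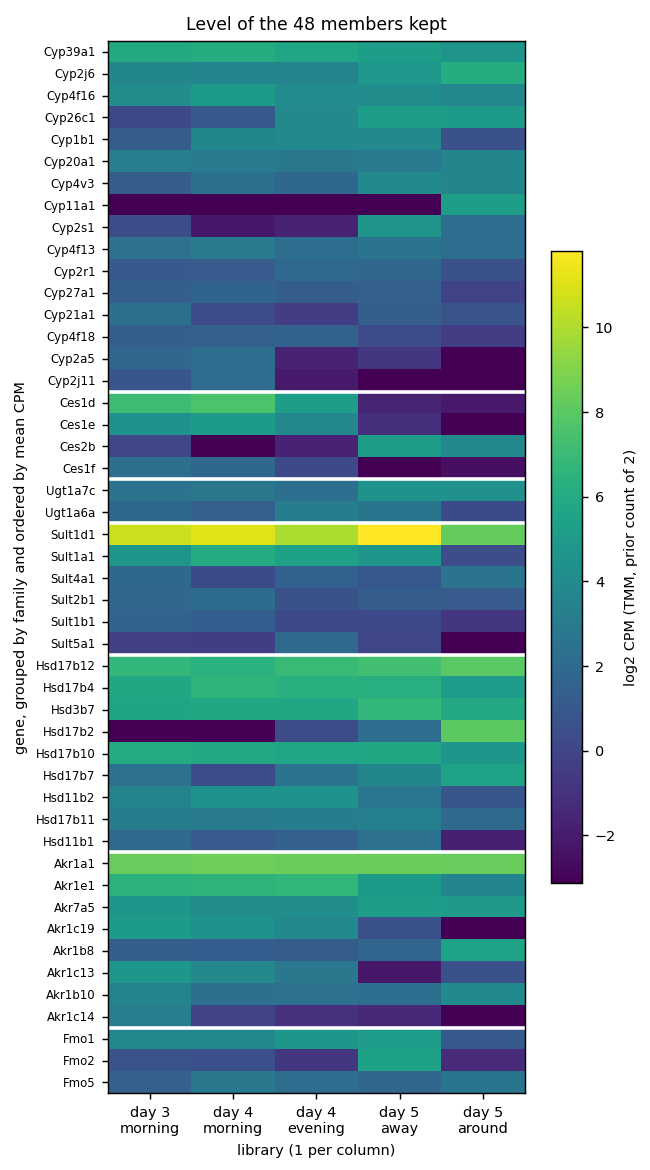
Level of each of the 48 kept members (rows, grouped by family) in each of the 5 libraries (columns), as log2 CPM with a prior count of 2. Sult1d1 is the brightest row in 4 libraries, and the darkest cells are members at 0 counts, such as Cyp11a1 in every library but the one at the AM pole.

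Per kilobase of gene length, Sult1d1 had the highest mean level of the members, 718 RPKM over the 5 libraries. The aldehyde reductase Akr1a1 followed at 239 RPKM, the fatty acid elongation enzyme Hsd17b12 at 78.8, the mitochondrial dehydrogenase Hsd17b10 at 56.8 and the oestradiol-oxidising Hsd17b2 at 41.6. The next mean levels were those of Akr1e1 (39.2 RPKM), Ces1d (37.3 RPKM) and Hsd3b7 (35.4 RPKM). These means hide opposite histories. The level of Akr1a1 stayed between 227 and 254 RPKM in all 5 libraries, whereas the mean of Hsd17b2 came almost wholly from the 203 RPKM at the AM pole and that of Ces1d from the 3 libraries before day 5.

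A member was called past 2-fold where the whole 95% counting interval of the ratio of its scaled counts lay beyond 2-fold. On day 3 morning against day 4 morning, 5 of the 48 kept members were called higher, where 7.00% of the 12915 genes kept were, and 2 lower, where 3.54% were. The 5 were Akr1c14, Ces2b, Cyp2s1, Cyp21a1 and Hsd17b7, and the 2 were Cyp1b1 and Sult1a1. On day 4 evening 5 were higher than on day 4 morning (3.86% of all genes) and 6 lower (3.10% of all genes). The 5 higher were Cyp26c1, Hsd17b2, Hsd17b7, Sult5a1 and Ugt1a6a, and the 6 lower were Ces1d, Ces1e, Ces1f, Cyp2a5, Cyp2j11 and Sult1d1. In bulk tissue, fewer cells of a type and less RNA per cell cannot be told apart in these or in later differences.

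On day 5 at the M pole, 8 members were called higher than on day 4 morning, beside 10.4% of all genes, and 10 lower, beside 10.3%. At the AM pole 12 were higher, beside 16.9%, and 22 lower, beside 17.2%. The median log2 change of the 48 was -0.00 at the M pole and -1.16 at the AM pole, where all genes kept had a median of -0.03. Between the day 5 libraries, 8 members were higher at the AM pole than at the M pole (10.4% of all genes) and 13 were lower (9.07%). The median log2 difference was -0.72 [-1.39, -0.22] beside -0.05 for all genes. Genes are not replicates, so these intervals of medians describe the list only. Of the 48 members, 3 reached 1 CPM in 1 library only (Akr1c14, Cyp11a1 and Sult5a1) and had to differ to be kept. Ces2b, Cyp2a5 and Cyp2j11 reached it in 2 libraries, and Fmo2 drew most of its mean of 9.15 CPM from the 42.1 CPM at the M pole. The filter leaned on the high libraries of these genes as well, so the counts of calls describe the kept members and not all 202. With scaling and filter computed without the library at the AM pole, an alternative added after seeing the data, the calls of the other 3 comparisons were 5 higher and 2 lower on day 3 (6.98% and 3.55% of all genes), 5 and 6 on day 4 evening (3.68% and 3.05%) and 8 and 10 at the M pole (10.1% and 10.5%).

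**Figure D2:**
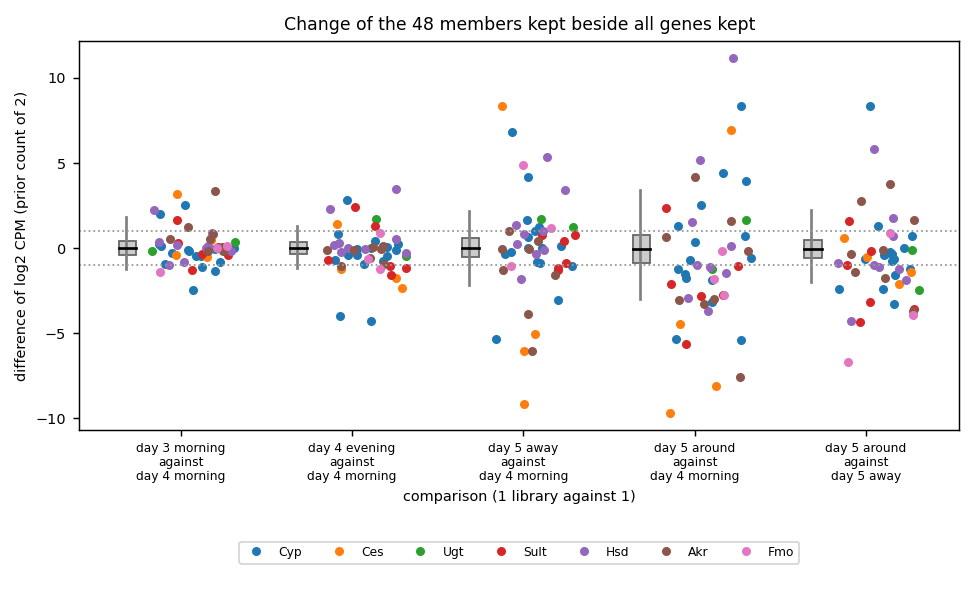
Difference of log2 CPM (prior count of 2) of each kept member (coloured points, by family) in the 5 comparisons, beside boxes for all 12915 genes kept (median, quartiles, and the 5th to 95th percentiles as whiskers). Points spread furthest in the comparison of day 5 at the AM pole with day 4 morning, from -9.67 for Ces1d to 11.15 for Hsd17b2, and dotted lines mark 2-fold.

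Promoter windows are shown for members the results turn on. Sult1d1 has the highest mean level of the members, Akr1c13 and Akr1c19 are neighbours that were both lower on day 5, Hsd17b7 was called in each of the 5 comparisons, and Cyp1b1 is a classical target of the aryl hydrocarbon receptor. Each window runs from 250 bases before to 50 after the RefSeq transcription start in GRCm38.p6 and is written along the strand of the gene. Capitals mark GCGTG (the core bound by the aryl hydrocarbon receptor with Arnt) or TTCNNNGAA (bound by Stat proteins), found on either strand. The windows are chr5:87568957-87569256 (minus strand) for Sult1d1, chr13:4190937-4191236 (plus) for Akr1c13, chr13:4233490-4233789 (plus) for Akr1c19, chr1:169969156-169969455 (minus) for Hsd17b7 and chr17:79715012-79715311 (minus) for Cyp1b1.
Sult1d1: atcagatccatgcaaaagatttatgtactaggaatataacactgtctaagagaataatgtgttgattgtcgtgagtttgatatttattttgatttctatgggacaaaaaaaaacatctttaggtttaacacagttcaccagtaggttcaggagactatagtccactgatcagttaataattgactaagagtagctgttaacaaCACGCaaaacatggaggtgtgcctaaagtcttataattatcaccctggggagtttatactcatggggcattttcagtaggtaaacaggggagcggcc
Akr1c13: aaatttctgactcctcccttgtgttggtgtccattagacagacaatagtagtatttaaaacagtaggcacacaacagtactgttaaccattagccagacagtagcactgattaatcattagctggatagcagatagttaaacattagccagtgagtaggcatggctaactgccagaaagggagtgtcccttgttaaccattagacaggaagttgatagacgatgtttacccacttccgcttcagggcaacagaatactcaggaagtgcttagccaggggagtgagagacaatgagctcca
Akr1c19: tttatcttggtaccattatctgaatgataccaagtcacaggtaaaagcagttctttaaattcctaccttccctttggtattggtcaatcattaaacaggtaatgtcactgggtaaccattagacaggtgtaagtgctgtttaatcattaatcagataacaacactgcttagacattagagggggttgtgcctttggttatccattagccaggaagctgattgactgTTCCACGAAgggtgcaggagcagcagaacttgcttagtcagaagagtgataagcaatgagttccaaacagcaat
Hsd17b7: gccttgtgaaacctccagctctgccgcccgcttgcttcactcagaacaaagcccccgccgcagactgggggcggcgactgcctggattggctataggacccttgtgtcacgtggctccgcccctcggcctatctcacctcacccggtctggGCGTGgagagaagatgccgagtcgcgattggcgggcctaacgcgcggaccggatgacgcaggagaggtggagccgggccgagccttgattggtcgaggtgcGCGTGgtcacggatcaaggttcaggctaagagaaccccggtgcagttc
Cyp1b1: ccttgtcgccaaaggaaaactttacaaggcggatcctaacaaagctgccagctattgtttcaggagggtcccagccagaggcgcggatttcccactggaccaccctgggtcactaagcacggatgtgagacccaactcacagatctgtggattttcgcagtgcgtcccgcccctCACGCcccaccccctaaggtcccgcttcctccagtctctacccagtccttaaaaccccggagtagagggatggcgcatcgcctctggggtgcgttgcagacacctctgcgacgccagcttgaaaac

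Of the 48 kept members 38 had a window. GCGTG was found in 39.5% of the 38 and in 35.2% of 27025 genes with a window, and TTCNNNGAA in 15.8% and 9.55%. TGANTCA (AP-1) was in 10.5% and 8.97%, ACANNNTGT (a progesterone receptor core) in 7.90% and 7.90%, and the full palindromic oestrogen response element in 0% and 0.0555%. Each motif was searched on both strands on its own, and matches of different motifs may overlap, such as GCGTG and TGANTCA at the letters TG. The windows of Akr1c13 and Akr1c19 had 195 identical bases in an alignment of 326 (59.8%). A match of letters is a description of the sequence and was not tested for binding.

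Sulfotransferases had the highest summed level of the families in each library but that at the AM pole, and it moved over the widest range of CPM. Their sum was 1634 CPM on the morning of day 3, 2195 on that of day 4, 1060 that evening, 3600 at the M pole and 314 at the AM pole, where the dehydrogenases summed to 686 and the aldo-keto reductases to 430. Sult1d1, which sulfates catecholamines and other phenols, lies on chromosome 5 of GRCm38/mm10 (87554650 to 87569006, protein-coding). It had 27707 counts on the morning of day 3, 38054 on that of day 4, 15943 that evening, 66503 at the M pole and 5242 at the AM pole. Its highest and its lowest library were thus the pair from day 5. At the AM pole it was 11.7-fold lower than at the M pole (log2 -3.55 [-3.59, -3.51]) and 6.96-fold lower than on day 4 morning. On day 4 evening it was 2.10-fold lower than in the morning (log2 -1.07 [-1.10, -1.05]), a call that scaling by library totals ended at -1.02. Its neighbours gave few reads. Sult1b1, a sulfotransferase for phenols and thyroid hormone, had 51, 43, 16, 19 and 8 counts in the same order, and the oestrogen sulfotransferase gene Sult1e1 had 2 counts at the M pole and 0 in the other 4 libraries.

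Sult1a1, the main phenol sulfotransferase, is on chromosome 7 (126672870 to 126676357). It had 478 counts on the morning of day 3, 1203 on that of day 4, 663 that evening, 507 at the M pole and 21 at the AM pole. Day 4 morning was its peak, and it was lower by log2 -1.28 [-1.44, -1.13] on day 3 morning, -1.30 [-1.45, -1.15] at the M pole and -5.65 [-6.48, -5.16] at the AM pole. Scaling by library totals ended the calls of day 3 and the M pole, at -0.98 and -1.02. Both Sult1d1 and Sult1a1 were therefore lower at the AM pole than on day 4 morning, while at the M pole Sult1d1 was 1.68-fold higher without passing the threshold (log2 0.75, and 1.03 with library totals) and Sult1a1 was 2.46-fold lower. Sult4a1, a member expressed mainly in brain, had 62, 19, 44, 35 and 103 counts and was higher at the AM pole than on day 4 morning (log2 2.38 [1.78, 3.29]). Sult5a1 had 12, 12, 63, 17 and 0 counts, with its peak on day 4 evening (log2 2.39 [1.67, 3.60] against the morning). The cholesterol sulfotransferase gene Sult2b1 had 59, 79, 22, 44 and 36 counts and passed in no comparison.

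**Figure D3:**
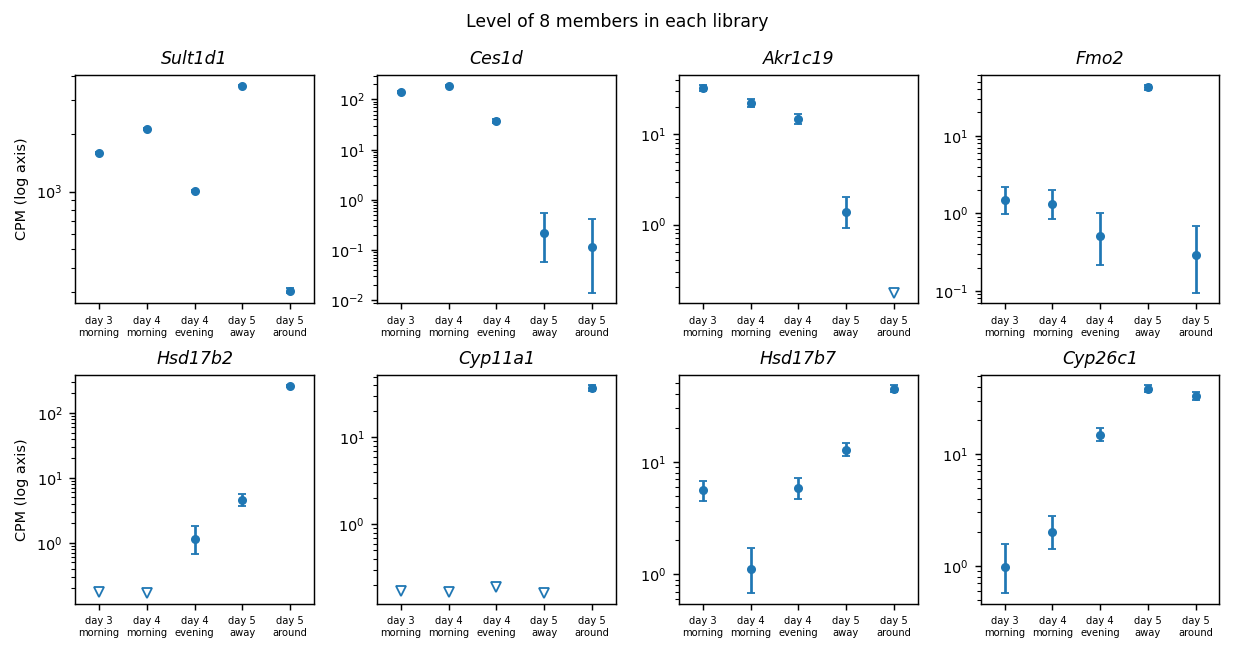
CPM (log axis) of 8 members in each of the 5 libraries, with bars for the 95% Poisson counting interval and open triangles at the level of 3 counts for a library with 0 counts. Ces1d and Akr1c19 were low in both day 5 libraries, Sult1d1 and Fmo2 separated the day 5 pair with the library at the M pole higher, and Hsd17b2, Cyp11a1 and Hsd17b7 separated it in the other direction.

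Carboxylesterase genes showed opposite histories in separate clusters on chromosome 8. Ces1d (93166072 to 93197804), Ces1e (93201218 to 93229619) and Ces1f (93256236 to 93279736) lie side by side on the minus strand, and Ces1d encodes a triacylglycerol hydrolase. Ces1d had 2434 counts on the morning of day 3, 3386 on that of day 4, 592 that evening, 4 at the M pole and 2 at the AM pole. Ces1e had 386, 577, 216, 7 and 0 counts and Ces1f had 88, 65, 16, 0 and 1 in the same order. All 3 were already lower on day 4 evening than in the morning, by log2 -2.33 [-2.46, -2.21] for Ces1d, -1.23 [-1.47, -1.01] for Ces1e and -1.73 [-2.73, -1.03] for Ces1f, of which library totals kept the call of Ces1d. On day 5 each was at 7 counts or fewer in both libraries. Ces1e was 85.6-fold lower at the M pole (log2 -6.04 [-7.74, -5.37]) and at least 184-fold lower at the AM pole, and Ces1f at least 22.5-fold lower at the M pole. The remaining Ces1 genes were nearly silent, with Ces1a and Ces1b at 2 counts at the AM pole and 0 elsewhere, Ces1g at 2 counts on day 4 morning and Ces1c at 0 throughout.

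Ces2b lies in another cluster of the chromosome (104831644 to 104838652, plus strand) and moved the other way. It had 16 counts on the morning of day 3, 0 on that of day 4, 3 that evening, 703 at the M pole and 246 at the AM pole. Against day 4 morning it was at least 226-fold higher at the M pole and at least 85.5-fold higher at the AM pole, and at the AM pole it was 2.64-fold lower than at the M pole (log2 -1.39 [-1.62, -1.19]). The other Ces2 genes had at most 19 counts in a library. Ces2c (104847068 to 104854482) had 11, 0, 0, 13 and 9 counts, Ces2g had 19, 0, 0, 18 and 0, and Ces2e had 0, 2, 3, 0 and 2. Ces2f had 1 count on day 3, Ces2d-ps had 1 at the M pole, and Ces2a and Ces2h were at 0 in all libraries. The summed level of the 19 carboxylesterases was 170 CPM on the morning of day 3, 225 on that of day 4, 52.7 that evening, 40.0 at the M pole and 15.3 at the AM pole.

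Hsd17b2 and Hsd17b7 are among the dehydrogenases that act on oestrogens, and both were highest at the AM pole. Of the other kept Hsd17b genes, Hsd17b12 was highest there, and Hsd17b4, Hsd17b10 and Hsd17b11 were lowest there. Hsd17b2 (chromosome 8, 117701946 to 117759029) oxidises oestradiol to the weaker oestrone. It had 0 counts on day 3 and day 4 morning, 18 on day 4 evening, 85 at the M pole and 4486 at the AM pole. The order was therefore one of increase up to attachment with the highest value at the AM pole, at least 6.81-fold higher on day 4 evening, at least 27.3-fold at the M pole and at least 1559-fold at the AM pole, each against day 4 morning. At the AM pole it was 57.2-fold higher than at the M pole (log2 5.80 [5.53, 6.16]). The summed embryo markers and the stroma genes Des and Hand2 were also highest in that library, where the stroma genes Dcn, Col1a2 and Col3a1 were lowest, and their part in the level of Hsd17b2 was not tested. Hsd17b7 (chromosome 1, 169949537 to 169969205) reduces oestrone to oestradiol and also acts in cholesterol synthesis. Its counts were 97, 20, 92, 240 and 770, so that day 4 morning was the lowest and the library at the AM pole the highest. The log2 change from day 4 morning was 3.40 [2.87, 4.27] at the M pole and 5.19 [4.69, 6.05] at the AM pole. Hsd17b1, also known for making oestradiol, had 8 counts at most, and aromatase (Cyp19a1) was at 0 in all 5 libraries.

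Dehydrogenases of fatty acid, isoleucine and bile acid metabolism ranged less widely than Hsd17b2 and Hsd17b7, though Hsd17b12 and Hsd17b4 were called at the AM pole. Hsd17b12, a ketoacyl-CoA reductase of fatty acid elongation, had 1873, 1536, 1983, 2852 and 4357 counts, and it was 2.96-fold higher at the AM pole than on day 4 morning (log2 1.56 [1.48, 1.65]). Hsd17b10, which acts in isoleucine breakdown and in the mitochondrial RNase P, had 1160, 1063, 779, 1039 and 477 counts and passed in no comparison, with a log2 difference of -1.09 [-1.25, -0.94] at the AM pole. With library totals Hsd17b10 was called lower at the AM pole than at the M pole (log2 -1.32 [-1.48, -1.16]). The peroxisomal enzyme gene Hsd17b4 had 931, 1718, 1315, 1406 and 602 counts and was called lower only at the AM pole against day 4 morning (log2 -1.45 [-1.59, -1.32]). With library totals it was also called lower there than at the M pole (log2 -1.42 [-1.56, -1.28]). Hsd3b7, an enzyme of bile acid synthesis, had 834, 958, 863, 2012 and 1006 counts and passed in no comparison. With library totals it was called higher at the M pole than on day 4 morning (log2 1.29 [1.18, 1.41]). It was then also called lower at the AM pole than at the M pole (log2 -1.19 [-1.31, -1.09]). Reads on Hsd3b7 are uncertain, since 83.1% of its 50-base stretches also occur in the gene model Gm49388.

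Both genes of the pair that balances glucocorticoids had their lowest level at the AM pole. Hsd11b2 (chromosome 8, 105518746 to 105523988) oxidises corticosterone to an inactive form. It had 204 counts on the morning of day 3, 423 on that of day 4, 361 that evening, 124 at the M pole and 30 at the AM pole, which against day 4 morning was lower by log2 -1.81 [-2.13, -1.53] at the M pole and -3.67 [-4.34, -3.22] at the AM pole. Hsd11b1 (chromosome 1, 193221641 to 193264045), which regenerates the active hormone, had 69, 38, 41, 103 and 3 counts. Between the day 5 libraries it was lower at the AM pole by log2 -4.29 [-7.29, -3.40]. H6pd is no member but supplies the NADPH that Hsd11b1 uses inside the endoplasmic reticulum. It had 340, 398, 639, 9877 and 13595 counts, 23.9-fold higher at the M pole and 35.6-fold higher at the AM pole than on day 4 morning. The level of H6pd was therefore high in both day 5 libraries, and that of Hsd11b1 in the one at the M pole only by 2.61-fold, which did not pass (log2 1.34 [0.83, 1.96]). With library totals that change of Hsd11b1 passed, at log2 1.61 [1.11, 2.24].

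Of the steroid-making P450 genes, Cyp11a1 was counted at the AM pole and nowhere else. Cyp11a1 (chromosome 9, 58015017 to 58027023) cleaves the side chain of cholesterol to give pregnenolone, the first step of steroid synthesis. It had 635 counts at the AM pole and 0 in each of the other 4 libraries, at least 221-fold higher than on day 4 morning and at least 229-fold higher than at the M pole. The embryo markers Cdx2, Pou5f1, Nanog and Hand1 had the same 4 libraries at 0, and their part in the level of Cyp11a1 was not tested. The genes that work with Cyp11a1 did not share its pattern. The cholesterol carrier gene Star had 88, 87, 56, 66 and 57 counts, the electron carrier gene Fdx1 had 834, 642, 608, 599 and 510, and Fdxr, its reductase, had 62, 83, 21, 49 and 35. Of the enzymes that follow, Hsd3b1, Hsd3b6 and Cyp17a1 were at 0 in all 5 libraries and Hsd3b3 had 4 counts on day 4 evening and 0 elsewhere. A count of 0 was read as a level under 3 counts, which is up to 0.190 CPM in a library. Hsd3b8 and Hsd3b9 were not analysed here. Cyp21a1, the 21-hydroxylase, had 88, 21, 10, 46 and 26 counts and was higher on day 3 than a day later (log2 2.01 [1.42, 2.88]), but 23.9% of its 50-base stretches also occur in the pseudogene Cyp21a2-ps.

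The Akr1c reductases, which act on steroids and other carbonyl compounds, were low or had their highest level on day 3. Akr1c18, which converts progesterone to an inactive hydroxy form, had 0, 9, 18, 5 and 14 counts and was not kept. Akr1c14, a 3-alpha-hydroxysteroid dehydrogenase, had 165 counts on the morning of day 3, 15 on that of day 4, 6 that evening, 5 at the M pole and 0 at the AM pole. It was 11.4-fold higher on day 3 than on day 4 morning (log2 3.34 [2.74, 4.38]) and at least 4.79-fold lower at the AM pole. Akr1c19 (chromosome 13, 4233740 to 4248359) had 566, 398, 235, 26 and 0 counts, and Akr1c13 (4191187 to 4205603) had 466, 266, 114, 2 and 24. Akr1c14, Akr1c19 and Akr1c13 had their highest level on day 3 morning, the earliest library. From day 4 morning the log2 change of Akr1c19 was -3.88 [-4.62, -3.42] at the M pole and it was at least 127-fold lower at the AM pole, and that of Akr1c13 was -6.07 [-10.16, -5.24] and -3.31 [-4.08, -2.81]. Reads on Akr1c13 are uncertain, since 24.2% of its 50-base stretches occur in Akr1c12 too.

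The other aldo-keto reductases act on sugars and aldehydes. Akr1a1 (chromosome 4, 116636510 to 116651674), an aldehyde reductase that also serves vitamin C synthesis, had 5583, 6448, 5305, 6556 and 5584 counts, and its log2 differences lay between -0.16 and -0.03 in the 5 comparisons. With library totals they ranged more widely, up to 0.25 at the M pole against day 4 morning and below -0.16 between the day 5 libraries. Akr1e1, which reduces anhydrofructose, had 1523, 1741, 1683, 608 and 207 counts and was lower at the M pole by log2 -1.57 [-1.71, -1.44] and at the AM pole by -3.00 [-3.23, -2.80]. The aldose reductase-like Akr1b8 (chromosome 6, 34354164 to 34368454) had 44, 44, 36, 61 and 791 counts. It was 18.7-fold higher at the AM pole than on day 4 morning (log2 4.17 [3.79, 4.70]), and 14.0-fold higher than at the M pole. Akr7a5, which reduces aldehydes, had 478, 342, 286, 712 and 509 counts and was called in no comparison (log2 1.00 [0.82, 1.19] at the M pole, and 1.28 with library totals, which passed). Akr1b10, the neighbour of Akr1b8, had 214, 91, 83, 90 and 269 counts and was 3.08-fold higher at the AM pole than on day 4 morning. Aldose reductase itself (Akr1b3) was listed at 0 in all libraries, and 96.4% of its exon bases overlap another row of the table, Gm6644, whose part in that 0 was not tested.

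Retinoid breakdown was represented by Cyp26c1 and Cyp26b1, which hydroxylate retinoic acid. Cyp26c1 (chromosome 19, 37685680 to 37693307) had 17 counts on the morning of day 3, 36 on that of day 4, 236 that evening, 713 at the M pole and 564 at the AM pole. It was higher than on day 4 morning by log2 2.83 [2.39, 3.44] on day 4 evening, 4.18 [3.77, 4.78] at the M pole and 3.95 [3.54, 4.56] at the AM pole. The day 5 pair differed little beside these changes, by log2 -0.22 [-0.39, -0.06]. Cyp26b1 had 0, 8, 42, 0 and 2 counts and was not kept. The highest value of Cyp26b1 was on day 4 evening, when Cyp26c1 was between its day 4 morning and day 5 levels.

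The P450 genes known to respond to the aryl hydrocarbon receptor differed among themselves. Cyp1b1 (chromosome 17, 79706953 to 79715041), which hydroxylates oestradiol, had 40 counts on the morning of day 3, 240 on that of day 4, 248 that evening, 273 at the M pole and 24 at the AM pole. It was high in the 3 middle libraries, lower on day 3 (log2 -2.48 [-3.06, -2.05]) and lower at the AM pole than at the M pole (log2 -3.29 [-4.06, -2.79]). Cyp2s1 had 21, 2, 3, 472 and 82 counts, and it was higher than on day 4 morning by log2 6.81 [5.97, 10.88] at the M pole and 4.43 [3.52, 8.49] at the AM pole. Cyp1a1 had 16 counts at the AM pole, 2 on day 3 morning and 0 otherwise. The receptor gene Ahr had 868, 607, 651, 1044 and 1263 counts, and Tiparp, another target, had 620, 512, 630, 774 and 3305 counts. Tiparp was 6.73-fold higher at the AM pole than on day 4 morning, where Cyp1b1 was 9.59-fold lower.

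P450 genes of sterols and vitamin D were low or lower at the AM pole. Cyp39a1 (chromosome 17, 43667425 to 43751431), which hydroxylates oxysterols, had 1052, 1235, 820, 700 and 409 counts and was 2.90-fold lower at the AM pole than on day 4 morning (log2 -1.53 [-1.70, -1.37]). Cyp27a1, the sterol 27-hydroxylase, had 44, 55, 36, 49 and 14 counts and was lower at the AM pole by log2 -1.78 [-2.88, -1.05], a call that DESeq2 size factors ended at -1.73. Cyp7b1, another oxysterol hydroxylase, had 19 counts at most and was not kept. For vitamin D, the 25-hydroxylase Cyp2r1 had 34, 38, 60, 64 and 24 counts and passed in no comparison, the activating Cyp27b1 had 6 counts at most and the inactivating Cyp24a1 was at 0 in all 5 libraries.

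P450 genes of fatty acids and eicosanoids moved in both directions. Cyp2j6 (chromosome 4, 96516138 to 96553651), an epoxygenase of arachidonic and linoleic acid, had 230, 221, 185, 537 and 1214 counts and was higher at the AM pole than on day 4 morning by log2 2.51 [2.31, 2.73] and than at the M pole by 1.29 [1.14, 1.44], or 0.98 with library totals. Its relative Cyp2j11 had 30, 81, 2, 0 and 0 counts. Cyp2j11 was lower on day 4 evening by log2 -4.26 [-8.23, -3.26], and so was Cyp2a5 by -4.01 [-6.96, -3.06], a coumarin hydroxylase with 59, 86, 3, 9 and 0 counts that shares 37.0% of its 50-base stretches with Cyp2a4. Cyp4v3, a fatty acid hydroxylase, had 40, 90, 58, 297 and 219 counts and was 3.18-fold higher at the M pole than on day 4 morning. At the AM pole Cyp4f16 (570 to 231 counts from day 4 morning) and the leukotriene hydroxylase gene Cyp4f18 (47 to 11 counts) were lower, by log2 -1.24 [-1.47, -1.02] and -1.86 [-3.13, -1.07]. DESeq2 size factors ended the call of Cyp4f16, at -1.19. Of the stretches of Cyp4f16, 17.4% occur in other genes. Cyp4f13 and the orphan P450 gene Cyp20a1 passed in no comparison, with 140 counts each on day 4 morning.

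Flavin-containing monooxygenases oxidise nitrogen and sulfur in drugs and amines, and Fmo1 and Fmo2 had their highest level at the M pole. Fmo1 (chromosome 1, 162829561 to 162866548) had 245 counts on the morning of day 3, 256 on that of day 4, 426 that evening, 613 at the M pole and 35 at the AM pole. Fmo2, its neighbour, had 26, 24, 8, 786 and 5 counts. Each was at its maximum in 1 day 5 library and far lower in the other, with Fmo1 16.2-fold lower (log2 -3.94 [-4.55, -3.52]) and Fmo2 145-fold lower (log2 -6.70 [-8.81, -5.95]) at the AM pole than at the M pole. Fmo5 did not share this, with 46, 128, 71, 64 and 110 counts and no call.

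**Figure D4:**
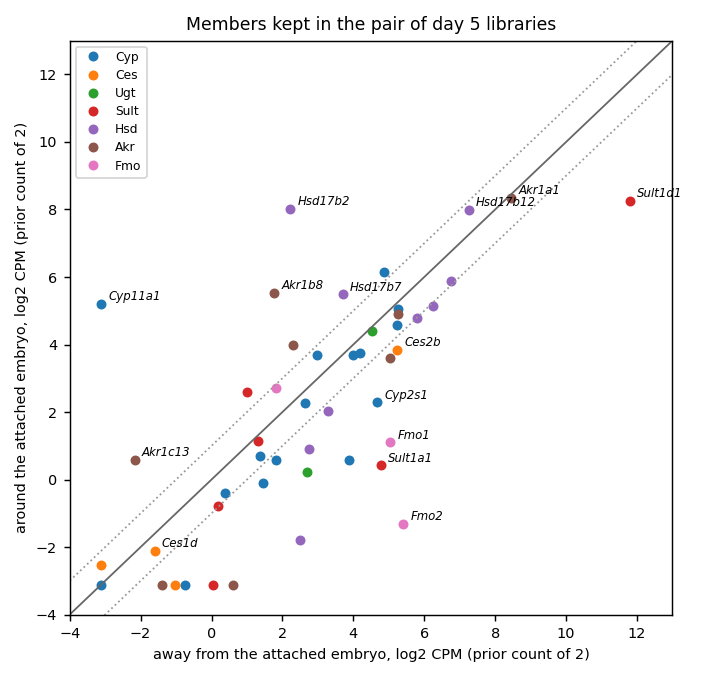
Level of each kept member at the AM pole (vertical axis) against its level at the M pole (horizontal axis), both as log2 CPM with a prior count of 2, coloured by family. The solid line marks equal levels and the dotted lines 2-fold, with Hsd17b2, Cyp11a1 and Akr1b8 furthest above the band and Fmo2, Sult1a1, Fmo1 and Sult1d1 far below it.

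Glucuronosyltransferases were few. Ugt1a7c had 106, 122, 79, 425 and 365 counts and was higher than on day 4 morning by log2 1.73 [1.45, 2.05] at the M pole and 1.63 [1.34, 1.95] at the AM pole. Ugt1a6a had 60, 47, 141, 118 and 18 counts, with a call on day 4 evening (log2 1.72 [1.28, 2.28]) and a lower level at the AM pole than at the M pole (log2 -2.47 [-3.40, -1.88]). Both genes are uncertain, because the first exons of the Ugt1a locus are spliced to shared ones, and 70.3% of the exon bases of Ugt1a7c and 70.1% of those of Ugt1a6a overlap another row. The other 19 Ugt genes were not kept.

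The genes that supply these enzymes were described from a list of 13 partners and cofactor genes, of which 12 were found and kept. Against day 4 morning, 0 were past 2-fold higher and 1 lower on day 3 (0.00% and 8.33%, beside 7.00% and 3.54% of all genes) and 0 and 1 on day 4 evening (beside 3.86% and 3.10%). At the M pole 2 were higher and 2 lower (16.7% each, beside 10.4% and 10.3%), as at the AM pole, where the shares were near those of all genes (16.9% and 17.2%). H6pd and Papss2 were the 2 higher in both day 5 libraries. Papss2, which like Papss1 makes the sulfate donor for the sulfotransferases, had 14, 10, 14, 45 and 160 counts. Papss2 was highest at the AM pole (log2 3.81 [3.14, 5.15]), the library with the lowest Sult1d1. Papss1 went the other way, with 859, 684, 403, 570 and 344 counts, lowest at the AM pole. Papss1 had more counts than Papss2 in each library, so the level of Papss2 alone does not describe the supply of the donor. Ugdh, which makes the glucuronic acid donor, had 620, 1379, 1230, 2701 and 2789 counts and passed in no comparison. The electron donors were level or lower. Por, the reductase of microsomal P450 enzymes, had 1022, 1624, 958, 947 and 1314 counts, Cyb5b had 11533, 10480, 6765, 2445 and 1889 and Cyb5r3 had 7496, 17281, 10068, 9178 and 2912. Cyb5b was 4.45-fold lower at the M pole and 5.32-fold lower at the AM pole than on day 4 morning. Ugp2, an earlier enzyme of the same sugar path as Ugdh, was 3.56-fold lower at the M pole, with 7586 counts on day 4 morning and 2213 there. Cyb5a was not analysed here.

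**Figure D5:**
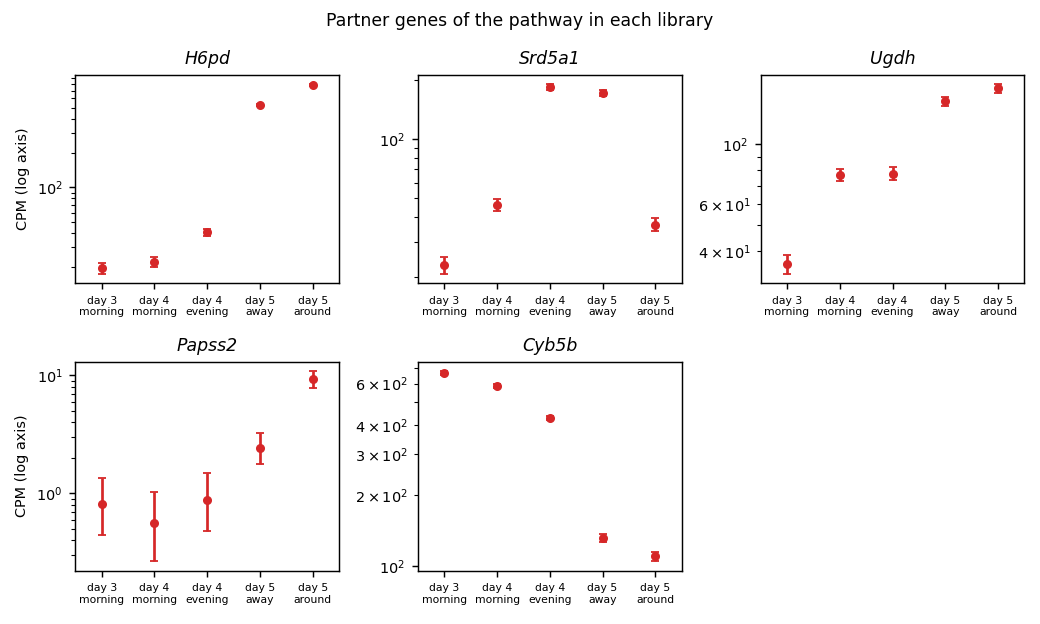
CPM (log axes of differing range) of 5 genes that act beside the members, in each of the 5 libraries, with bars for the 95% Poisson counting interval. H6pd and Papss2 were higher in both day 5 libraries than before, Srd5a1 was high on day 4 evening and at the M pole, and Cyb5b was lower on day 5.

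Of 17 further steroid and drug genes 16 were found and 10 kept. Against day 4 morning, 0 were past 2-fold higher and 0 lower on day 3, 1 and 0 on day 4 evening, 1 and 1 at the M pole and 1 and 1 at the AM pole, of 10 in each case, beside the shares of all genes just given. Srd5a1, the 5-alpha-reductase that acts on progesterone and testosterone, had 397 counts on the morning of day 3, 831 on that of day 4, 2900 that evening, 3195 at the M pole and 632 at the AM pole. It was 3.96-fold higher on day 4 evening than in the morning and 4.67-fold lower at the AM pole than at the M pole. The epoxide hydrolase gene Ephx1 had 264, 173, 135, 309 and 56 counts, and it was 5.09-fold lower at the AM pole than at the M pole. Ephx2, another epoxide hydrolase gene, had 25, 42, 20, 3 and 10 counts and was lower at the M pole than on day 4 morning (log2 -3.15 [-6.20, -2.22]). The pregnane receptor gene Nr1i2 and the deacetylase gene Aadac were at 0 in all libraries, and Sts was not analysed here.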

How the data were processed

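The authors deposited raw counts of reads per gene for 5 libraries, not normalized, with a gene length in bases. Per the methods of the study and the submitters' processing notes, RNA of laser-microdissected tissue was amplified with SMART-seq v.4, sequenced as paired ends, aligned to GRCm38/mm10 with HISAT2 and counted with featureCounts (Subread 2.0.0). The annotation, the strand setting and the handling of reads with several alignments are not given in the sources used here, so genes that share sequence and overlapping or antisense genes are uncertain.

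Counts were scaled by TMM over all genes (edgeR 4.0.16, R 4.3.3), and genes averaging at least 1 CPM across the libraries were kept (12915 genes). Log2 CPM carried a prior count of 2. RPKM used the deposited gene length. A call needed the whole 95% Clopper-Pearson interval of a ratio beyond 2-fold. Intervals of ratios and levels cover counting error only, and those of medians cover the spread over genes only. SMART-seq reads carry no molecular identifiers, so they are not independent molecules. With 1 library per group no spread could be estimated, and no p-value is given. A fold against a library at 0 was set against 3 counts. Symbols and exon overlaps came from the gene names and exon positions deposited with the counts. Gene types and shared 50-base stretches came from GENCODE vM21, which matched 198 of the 202 members, and promoter windows from RefSeq (GRCm38.p6). Python 3.11.15, pandas 2.3.3, scipy 1.17.1, Biopython 1.88 and matplotlib 3.10.9 were used, with DESeq2 1.42.0 for an alternative scaling. The calls were run on simulated Poisson counts with known fold changes and no spread between libraries. That is the model behind the interval, so the run checked the computation and not how the calls hold in unreplicated libraries.

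The members, gene lists and tests were chosen with earlier results of these data known. Members averaging at least 10 CPM were named if among the 3 highest mean RPKM of a family, among the 5 largest changes in either direction of a comparison, or past 2-fold in opposite directions in the day 5 libraries. Hormone-metabolising members, the Ces1 and Ces2 genes and the pathway genes past 2-fold were also named, and the remaining names were added after their values were seen. A gene of the lists is not reported here. Alternatives were DESeq2 size factors, library totals, no filter, a mean of at least 5 CPM, a prior count of 0.5, 4-fold, and the edgeR exact test at dispersions of 0.1 and 0.4.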

Additional observations from a re-analysis of the deposited data

Results flagged for a closer look

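For 5 members the whole 95% counting interval of the change from day 4 morning lay above 0 away from the embryo and below 0 around it on day 5, and the day 5 libraries differed past 2-fold. The difference of the changes, around minus away, was -6.70 on the log2 scale for Fmo2 (4.86 away and -1.84 around), -4.29 for Hsd11b1 (1.34 and -2.95), -3.94 for Fmo1 (1.20 and -2.74), -3.55 for Sult1d1 (0.75 and -2.80) and -2.47 for Ugt1a6a (1.24 and -1.24). Each group held 1 library, so the difference was not tested. The share of all genes kept that meet the same rule was not computed, so the count of 5 does not set the members apart from other genes. Both changes of a gene share the day 4 morning library, and the value of Ugt1a6a rests on reads shared within the Ugt1a locus.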

How the results depend on the processing

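No called value of a named member changed direction under the alternatives run. With library totals, uncalled values changed sign for 9 members on day 3 morning (Fmo1 from -0.01 to 0.28), 1 on day 4 evening (Hsd11b2) and 5 at the M pole (Hsd17b10 from -0.09 to 0.19). For day 3 morning against day 4 morning, the 5 members higher became 9 without the filter, 3 at a mean of 5 CPM, 1 at 4-fold, and 2 and 0 by the exact test at dispersions of 0.1 and 0.4. The 2 lower became 1 with library totals, 8 without the filter, 1 at 4-fold, and 1 and 0 by the exact test. The 5 members higher on day 4 evening became 9, 3, 2, 2 and 0 in the order given for day 3, and the 6 lower became 3 with library totals, 14 without the filter, 3 at 5 CPM, 3 at 4-fold, and 3 and 0 by the exact test. At the M pole the 8 higher became 16 with library totals and 3 at a dispersion of 0.4, and the 10 lower became 16 without the filter and 4 at 0.4. At the AM pole the 12 higher became 4 at 0.4, and the 22 lower became 13 at 5 CPM, 13 at 4-fold and 6 at 0.4. Between the day 5 libraries the 8 higher became 3 at 4-fold, 4 at a dispersion of 0.1 and 2 at 0.4, and the 13 lower became 8 at 4-fold and 1 at 0.4. Without the filter more members, and at 5 CPM fewer, entered the counts, and the cause of the other moves was not tested. The shares of all genes higher and lower are given in the same order of comparisons. They were 10.6% and 1.85%, 4.16% and 2.68%, 14.6% and 7.84%, 16.4% and 17.7%, and 7.90% and 14.0% with library totals. Without the filter they were 6.41% and 3.46%, 3.61% and 2.96%, 8.58% and 8.50%, 14.9% and 13.8%, and 9.62% and 7.41%. At 5 CPM they were 5.65% and 3.14%, 3.35% and 2.34%, 10.1% and 9.82%, 16.1% and 16.2%, and 9.37% and 8.08%. At 4-fold they were 2.47% and 0.496%, 1.15% and 0.557%, 4.00% and 4.28%, 8.74% and 7.37%, and 4.61% and 2.42%. At a dispersion of 0.1 they were 2.97% and 0.720%, 1.22% and 0.643%, 5.78% and 5.88%, 12.3% and 12.1%, and 6.16% and 4.68%. At 0.4 they were 0.00774% and 0.00%, 0.00% and 0.00%, 0.596% and 0.588%, 2.91% and 1.64%, and 0.875% and 0.0852%. Library totals put the median of all genes at 0.29 on day 3 morning, 0.28 at the M pole and -0.36 between the day 5 libraries, and split the members 7 higher and 1 lower, 5 and 3 (day 4 evening), 16 and 9, and 6 and 19. The median of the members moved from -0.01 to 0.19 on day 3 morning with library totals, and from -0.72 to 0.00 between the day 5 libraries without the filter. The other 42 counts stayed within 1.5 times. Of the values of single members under another scaling or prior count, 462 moved by less than their counting interval and 48 by more. No paired analysis was possible because each group has 1 library, and for the same reason no library could be left out of a group. Members under 3 counts in both libraries of a comparison could not show a difference at this depth.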

Other observations

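Among the 154 members that were not kept, 18 reached 1 CPM in at least 1 library, and a few of these, chosen after their values were seen, had most of their counts in a single library. Cyp3a13, a drug-oxidising P450 gene, had 1, 34, 4, 3 and 1 counts from day 3 morning, day 4 morning, day 4 evening, at the M pole and at the AM pole. Cyp4f17 had 3, 43, 5, 13 and 12 counts, and Ugt2a1, a glucuronosyltransferase gene, had 18 counts on day 4 morning and 0 elsewhere. Akr1c12, the neighbour that shares sequence with Akr1c13, had 37, 6, 14, 1 and 4 counts, so both were highest on day 3 morning. Ugt1a6b had 1, 1, 2, 29 and 5 counts and Ugt1a1 had 20, 31, 9, 4 and 9, and reads within the Ugt1a locus cannot be assigned with certainty. These low values were given without a comparison.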
